A study of Homo sapiens with 6 samples.

Results

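The 42 genes of DNA replication and S phase described here comprise factors that license origins, subunits of the replicative helicase, polymerases with the sliding clamp and its loader, the E2F1 and cyclin E genes that drive entry into S phase, and factors that rebuild chromatin behind the fork. They were taken by name from a gene list, and all 42 were found, each on 1 row, among the 25737 rows of the count table. The list was chosen with earlier results of these data known, including the order of libraries described below. RNA was measured in 6 libraries of U87MG, an established human glioblastoma cell line. The libraries labelled deprived 1 to 3 came from cells kept for 24 h in DMEM without serine and glycine, and those labelled complete 1 to 3 from cells kept for 24 h in DMEM with both amino acids. Both groups came from unmodified cells that had been maintained in DMEM with 10% fetal bovine serum and antibiotics. U87MG is a long-passaged line grown as a monoculture, so tumour stroma and immune cells are not modelled. Separate cultures for the 3 libraries of a label are not stated, so p-values speak of the spread of these 6 libraries alone, which may be technical.

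Before S phase, the origin recognition complex together with CDC6 and CDT1 loads the MCM2 to MCM7 ring onto DNA as an inactive double hexamer. The kinases CDC7 and CDK2 then convert it into the active helicase by joining CDC45 and the GINS complex to the ring, and polymerases alpha, delta and epsilon copy the opened strands with the clamp PCNA. Transcription of most of these genes is driven by E2F factors when the retinoblastoma protein is phosphorylated in late G1, which makes their RNA a common readout of the share of cycling cells. Serine and glycine feed the one-carbon units used to make purines and thymidylate, the precursors that replication consumes.

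The 6 libraries did not separate by label. PHGDH, the entry enzyme of serine synthesis, measured 201, 64.4 and 212 CPM in deprived 1, 2 and 3, and 193, 59.4 and 59.0 CPM in complete 1, 2 and 3. CPM is the count per 1000000 counts after TMM scaling, a correction of library size. ASNS, the asparagine synthetase that ATF4 induces, measured 152, 25.0 and 147 CPM in deprived 1, 2 and 3, and 134, 26.2 and 19.9 CPM in complete 1, 2 and 3. The library labelled deprived 2 was thus near complete 2 and complete 3, and the library labelled complete 1 was near deprived 1 and deprived 3, with PSAT1 and ATF4 in the same order. The first principal component, with 51.4% of the variance, placed deprived 1, deprived 3 and complete 1 on its negative side. In the deposited table the columns of these 3 libraries stand side by side, a position that was not used to assign any library. Whether this order came from the cells or from the labels was not tested, so each result below is given by label with all libraries, and again without deprived 2 and complete 1. Total counts were 7001929 to 7102846 in deprived and 6249706 to 7247995 in complete libraries, and TMM factors ran from 0.995 to 1.01.

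The glioblastoma identity was read from 9 markers, whose summed level was 7466 to 9841 CPM in deprived and 7806 to 9916 CPM in complete libraries. VIM, CD44, FN1, NES and EGFR, genes that mesenchymal glioma cells express, made up nearly all of it. The glial markers GFAP, SOX2 and S100B stayed under 1 CPM in every library. OLIG2, the other glial marker of the list, ranged over 3.40 to 3.58 CPM in deprived and 1.52 to 6.85 CPM in complete libraries. S100B had 0 counts, which allows up to 0.414 to 0.480 CPM by library for counting error only. The T cell genes CD3D and CD3E and the epithelial genes CDH1 and KRT5 also had 0 counts. The sums below leave out AIF1 of the leukocyte list and MOG of the oligodendrocyte list, which were each on several rows. Summed levels were 65.4 to 72.3 CPM in deprived and 50.2 to 66.7 CPM in complete libraries for the leukocyte list, nearly all of it CD68. For the epithelial list they were 0.851 to 1.28 CPM in deprived and 0.797 to 1.66 CPM in complete libraries, for the endothelial list 1.84 to 3.44 CPM in deprived and 0.743 to 2.08 CPM in complete libraries, and for the oligodendrocyte list 6.81 to 9.18 CPM in deprived and 5.26 to 6.83 CPM in complete libraries. The neuronal list summed to 250.1 to 293 CPM in deprived and 261 to 304 CPM in complete libraries. Most of it was TUBB3, at 184 to 218 CPM in deprived and 205 to 230 CPM in complete libraries. RBFOX3 of that list stayed under 1 CPM in every library. In bulk RNA, fewer cycling cells and less replication RNA per cell cannot be told apart.

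Promoters of 36 members were found in the RefSeq promoter table of assembly GRCh38.p14, which holds the 250 bases before and 50 bases after each start. MCM4, MCM5, GINS4, POLD3, RPA2 and CCNE2 had no entry. The E2F binding words TTTCCCGC, TTTCGCGC, TTTGCCGC and TTTGGCGC were searched on both strands, and overlapping words were each counted. At least 1 word stood in 19 of the 36 promoters, or 52.8%, against 3.31% of all 35116 promoters of that length and 4.91% of those of genes tested here. Each member was searched at 1 promoter. The percentages over all promoters and over genes tested, for each word searched, took every listed start, 14077 of them for genes tested. A match is a description and not a shown binding site. For each role, the promoter is printed of the member with an E2F word and the smallest p by label, because these genes are described below and E2F factors are the known activators of this set. Capitals mark the E2F words and all else is in lower case, 5′ to 3′ on the gene's strand. The windows are chr17:40287629-40287928 on the plus strand for CDC6, chr16:85688905-85689204 on the minus strand for GINS2, chr20:5126573-5126872 on the minus strand for PCNA, chr20:33686336-33686635 on the minus strand for E2F1 and chr19:4909251-4909550 on the plus strand for UHRF1.
CDC6: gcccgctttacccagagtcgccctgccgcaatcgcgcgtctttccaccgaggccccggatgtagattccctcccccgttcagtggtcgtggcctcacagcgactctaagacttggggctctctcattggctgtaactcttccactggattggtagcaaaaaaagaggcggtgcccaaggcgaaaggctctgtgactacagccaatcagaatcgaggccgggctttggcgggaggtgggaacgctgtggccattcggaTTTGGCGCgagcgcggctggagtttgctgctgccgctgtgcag
GINS2: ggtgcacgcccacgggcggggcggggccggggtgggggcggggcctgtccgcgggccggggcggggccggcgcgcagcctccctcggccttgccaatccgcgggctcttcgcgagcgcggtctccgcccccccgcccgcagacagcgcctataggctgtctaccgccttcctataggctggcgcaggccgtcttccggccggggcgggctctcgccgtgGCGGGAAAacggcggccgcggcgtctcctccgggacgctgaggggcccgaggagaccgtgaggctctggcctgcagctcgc
PCNA: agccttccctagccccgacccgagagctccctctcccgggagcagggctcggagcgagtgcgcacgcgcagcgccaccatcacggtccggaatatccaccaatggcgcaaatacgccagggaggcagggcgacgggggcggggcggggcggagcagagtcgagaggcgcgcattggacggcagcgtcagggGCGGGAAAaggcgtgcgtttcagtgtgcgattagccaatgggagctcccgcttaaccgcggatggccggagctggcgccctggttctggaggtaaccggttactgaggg
E2F1: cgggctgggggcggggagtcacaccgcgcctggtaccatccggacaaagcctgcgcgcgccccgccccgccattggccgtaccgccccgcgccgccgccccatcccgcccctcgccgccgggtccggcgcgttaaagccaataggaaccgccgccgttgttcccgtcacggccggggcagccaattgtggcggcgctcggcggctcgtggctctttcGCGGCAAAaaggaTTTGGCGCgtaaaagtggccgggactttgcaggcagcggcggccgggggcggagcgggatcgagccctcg
UHRF1: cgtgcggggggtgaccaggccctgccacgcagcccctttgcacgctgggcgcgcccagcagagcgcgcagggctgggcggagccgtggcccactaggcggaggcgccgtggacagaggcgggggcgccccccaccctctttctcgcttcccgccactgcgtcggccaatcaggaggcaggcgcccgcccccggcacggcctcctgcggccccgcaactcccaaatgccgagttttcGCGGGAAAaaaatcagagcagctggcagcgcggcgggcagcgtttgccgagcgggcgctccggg

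In these windows the word TTTGGCGC of CDC6 began 7 bases past the start, whereas the words of GINS2, PCNA and UHRF1 lay on the opposite strand, with offsets of -31, -59 and -14 from the start. E2F1 carried a pair of words, TTTGCCGC on the opposite strand and TTTGGCGC on its own strand, at -33 and -20. E2F words were most frequent among the promoters of helicase genes, with 8 of 11, and were found in 7 of 14 polymerase and clamp loader genes, 2 of 6 licensing genes, 1 of 2 in the E2F and cyclin E group and 1 of 3 chromatin assembly genes. The box CCAAT, bound by NF-Y, stood on either strand in 21 of 36 members, or 58.3%. It stood in 34.6% of all promoters and in 35% of those of genes tested. The word TTTGAA was searched as the CHR element of genes of later cell cycle phases. It stood in 0 of 36 members, against 15.2% of all promoters and 10.8% of those of genes tested.

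By label, 0 of the 42 replication genes passed an adjusted p of 0.05, and 0 had an unadjusted p under 0.05 in the quasi-likelihood test of edgeR, adjusted by Benjamini-Hochberg over 13068 genes. Across all genes the percentages were 0% and 1.89%. DESeq2 and limma-voom called 0 members as well, and 0 members had an unadjusted p under 0.05 in either. Every member passed the low count filter, with counts from 39 to 1487 per library. Fold changes are given as log2 ratios of deprived over complete, with the SE of the fit. The 95% interval of this ratio lay within a 1.5-fold change in either direction for 30 of the 42, and the widest bounds over all members were -0.76 and 0.80. All members had an edgeR adjusted p of 0.999. A log2 ratio below 0, meaning a lower level in deprived medium, was found for 32 of the 42, or 76.2%, against 49% of all genes. The median log2 ratio was -0.10 over the members and 0.0033 over all genes tested, and the median standard error of a member was 0.16. With 1 library left out, the number of members below 0 ran from 27, without deprived 3 or without complete 2, to 37, without deprived 2 or without complete 1. Only 21 members were below 0 and 2 above 0 in every such fit, and 19 changed sign.

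**Figure D1:**
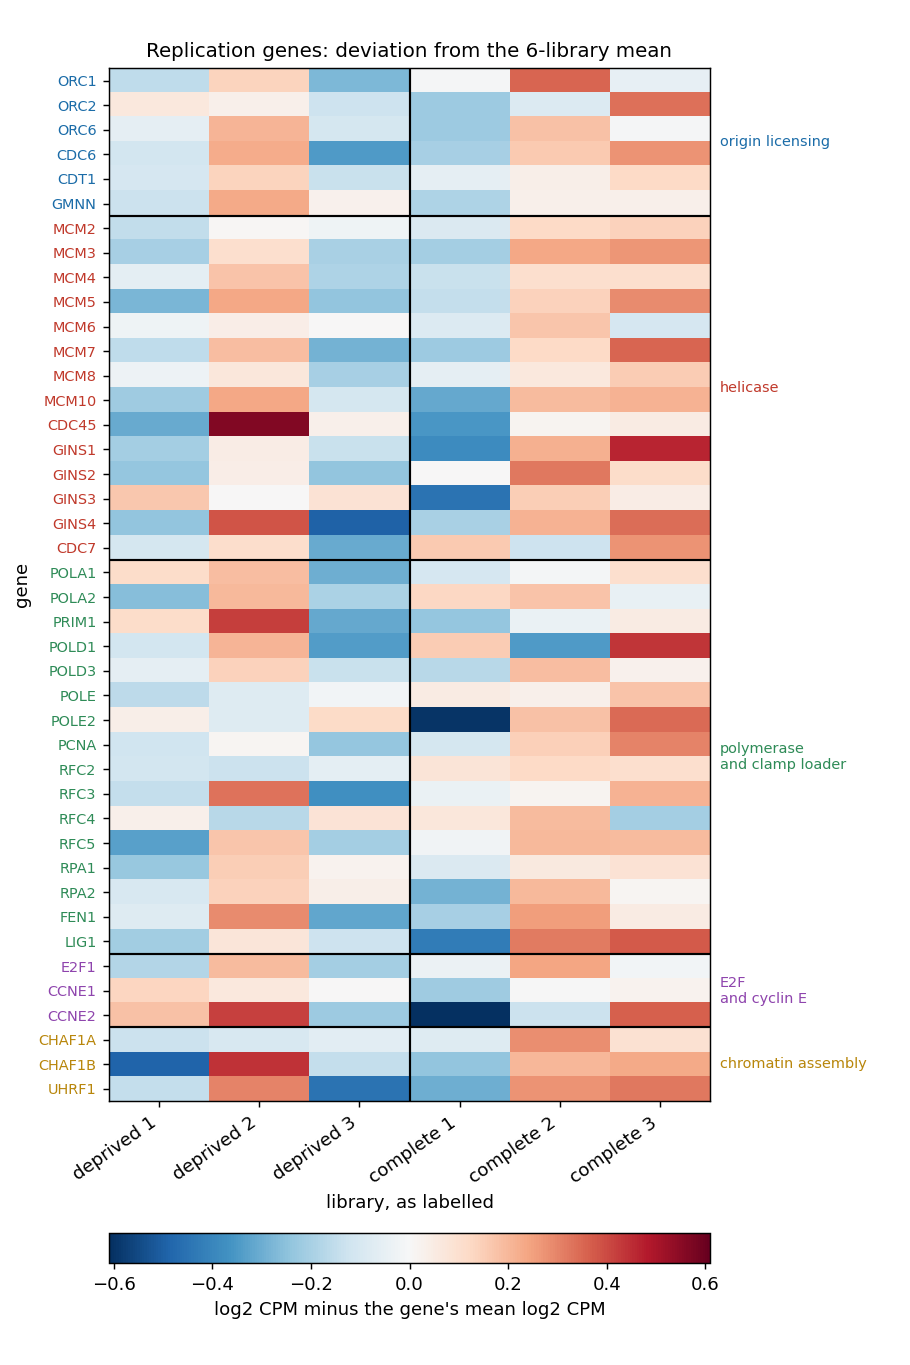
Deviation of each of the 42 replication genes (rows, grouped by role) from its 6-library mean, in log2 CPM, for the libraries as labelled (columns, deprived 1 to 3 left of complete 1 to 3). Blue cells, below the mean, gather in deprived 1, deprived 3 and complete 1, where 24 of the 42 genes had their 3 lowest values.

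In the heat map of deviations 24 of the 42 replication genes followed the order of libraries seen in PHGDH, in the opposite sense, and 18 followed neither sense. That order is called the crossing order, since it crosses the labels. For the 24 members the 3 lowest values were found in deprived 1, deprived 3 and complete 1, which is 57.1%, against 17.7% of all genes. The gap between these 3 libraries and the others ran from 0.0053 on the log2 scale in GMNN to 0.43 in UHRF1. The 3 highest values lay there for 0 members, against 18.3% of all genes. These libraries had been singled out by their values, and the genes were listed with that order known, so both percentages are descriptions. The mean deviation of the 42 genes was -0.11, 0.15 and -0.16 in deprived 1, 2 and 3, against -0.16, 0.12 and 0.16 in complete 1, 2 and 3, on the log2 CPM scale. Averaged by label it was -0.04 ± 0.17 in deprived and 0.04 ± 0.17 in complete libraries (SD, n = 3 each), so that the difference was smaller than the spread within a label. Of the 9 glioma markers VIM, CD44, FN1, NES and EGFR were also lowest in the same 3 libraries, VIM with 5110, 6848 and 5418 CPM in deprived 1, 2 and 3, and 5441, 6719 and 6914 CPM in complete 1, 2 and 3. So were SNAP25 and TUBB3 of the 4 neuronal markers, SNAP25 with 30.97, 42.4 and 31.6 CPM in deprived 1, 2 and 3, and 25.5, 40.7 and 38.9 CPM in complete 1, 2 and 3. The part of these markers in the result was not tested.

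Without deprived 2 and complete 1, which leaves 2 libraries per label, 16 of the 42 members passed the edgeR threshold, all of them lower in deprived medium. That is 38.1% of the members, against 7.38% of all genes called lower and 8.57% called higher. Each of the 16 belonged to the 24 members described above, and the median log2 ratio of the 42 was -0.26, with 39 below 0. Over all genes 49.9% were below 0 in that fit. Because both libraries were left out for their values, these counts are no independent test of the medium. The 3 members above 0 were GINS3 at 0.03, RFC4 at 0.05 and CCNE1 at 0.06.

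**Figure D2:**
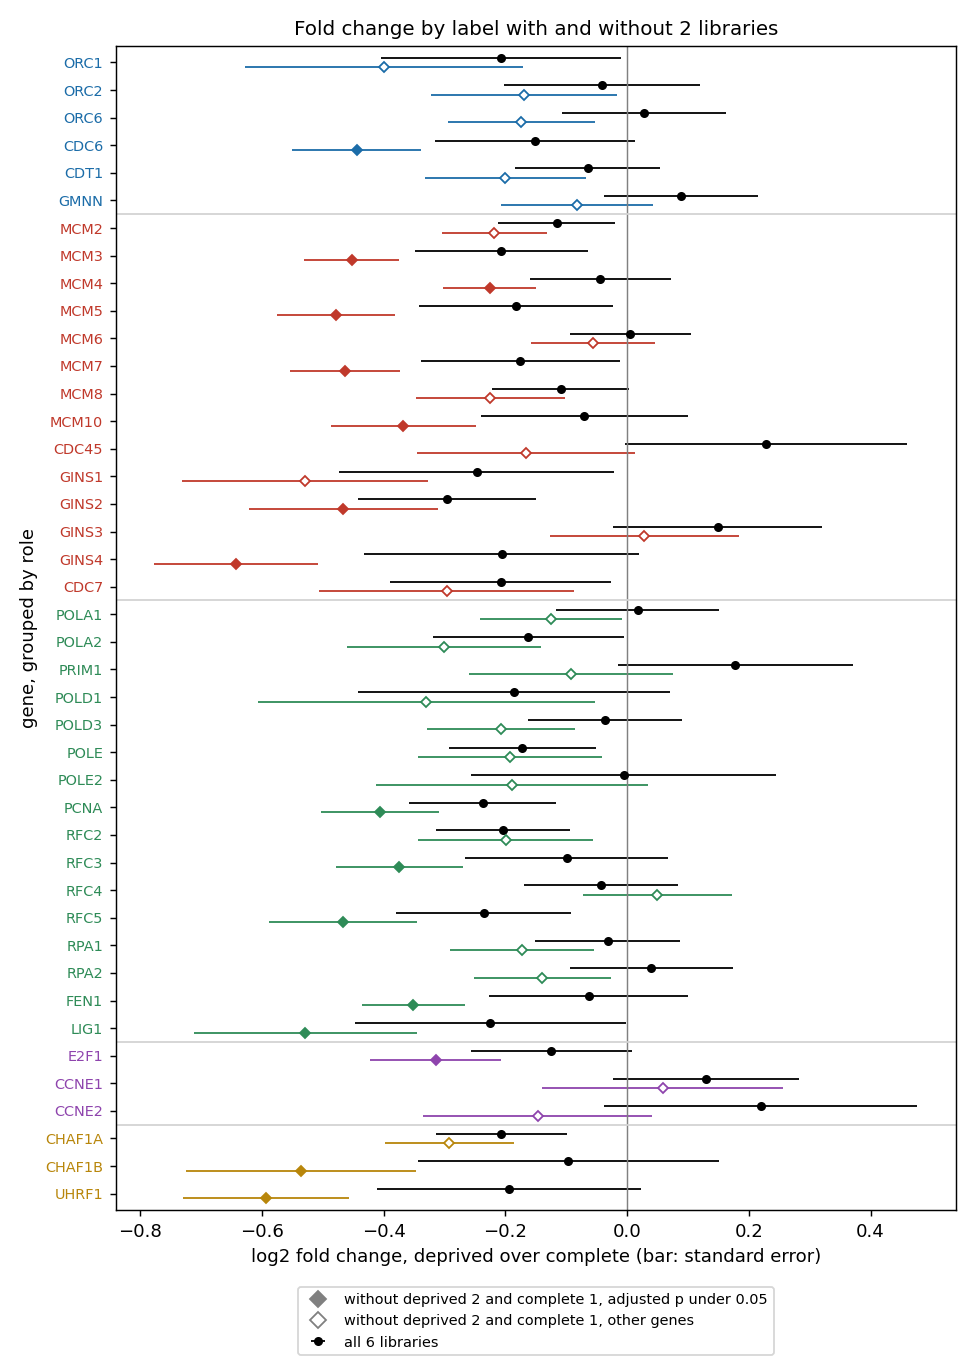
Log2 fold change of each member, deprived over complete, with its standard error, from all 6 libraries (black circles) and without deprived 2 and complete 1 (diamonds, filled where the edgeR adjusted p was under 0.05). With all libraries every gene lies within 0.30 of 0, and 16 diamonds are filled, all at negative values.

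Among the origin licensing genes, 4 of 6 had their lowest values in deprived 1, deprived 3 and complete 1, or 66.7% against 17.7% of all genes. By label 0 of 6 passed the test, against 0% of all genes. CDC6, the ATPase that loads the MCM ring, measured 59.5, 75.2 and 50.6 CPM in deprived 1, 2 and 3, and 55.8, 72.0 and 77.8 CPM in complete 1, 2 and 3. Deprived 2 stood with complete 2 and complete 3, and the labels overlapped. Its log2 ratio by label was -0.15 ± 0.16 (SE), and without deprived 2 and complete 1 it was -0.44 ± 0.11 (SE) with an edgeR adjusted p of 0.0028, making CDC6 the only licensing gene called in that fit. CDT1, the partner of CDC6 in ring loading, varied less, with 32.0, 37.8 and 31.2 CPM in deprived 1, 2 and 3, and 33.0, 35.2 and 37.4 CPM in complete 1, 2 and 3. GMNN, or geminin, which holds CDT1 inactive after replication starts, measured 36.7, 47.3 and 41.0 CPM in deprived 1, 2 and 3, and 35.2, 41.1 and 41.1 CPM in complete 1, 2 and 3.

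Geminin thus had a log2 ratio of 0.09 ± 0.13 (SE), while CDT1 had one of -0.06 ± 0.12 (SE), neither beyond the spread of the libraries. Without deprived 2 and complete 1, geminin was at -0.08 and CDT1 at -0.20, neither called. ORC6, the smallest subunit of the origin recognition complex, measured 42.3, 50.9 and 40.8 CPM in deprived 1, 2 and 3, and 37.6, 49.8 and 43.8 CPM in complete 1, 2 and 3. Its labels overlapped, and the gap between the 3 lowest libraries and the others was 0.05 on the log2 scale, against 0.28 for CDC6. ORC1, the ATPase subunit whose protein is degraded in S phase, ranged over 9.07 to 12.2 CPM in deprived and 10.7 to 14.3 CPM in complete libraries. ORC2, a core subunit present throughout the cycle, ranged over 25.4 to 28.96 CPM in deprived and 23.8 to 35.1 CPM in complete libraries, and neither gene kept to the order of PHGDH.

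Of the helicase genes 10 of 14, or 71.4%, kept the crossing order, against 17.7% of all genes. Without deprived 2 and complete 1, 7 of the 14, or 50%, were called lower, against 1 of 6 licensing genes and 7.38% of all genes. These shares were not tested against each other. Among the 6 subunits of the MCM2 to MCM7 ring, 5 had their lowest values in deprived 1, deprived 3 and complete 1. MCM3 measured 122, 151 and 122 CPM in deprived 1, 2 and 3, and 121, 165 and 169 CPM in complete 1, 2 and 3. Its labels overlapped, since complete 1 was the lowest library of all. MCM3 had a log2 ratio by label of -0.21 ± 0.14 (SE), and of -0.45 ± 0.08 (SE) with an edgeR adjusted p of 5.8e-05 without deprived 2 and complete 1.

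MCM4 measured 168, 198 and 154 CPM in deprived 1, 2 and 3, and 160, 189 and 188 CPM in complete 1, 2 and 3, with a log2 ratio by label of -0.04 and of -0.23 without both libraries. MCM5 measured 63.1, 90.4 and 64.9 CPM in deprived 1, 2 and 3, and 69.3, 84.7 and 93.7 CPM in complete 1, 2 and 3. MCM7 measured 98.4, 125 and 89.9 CPM in deprived 1, 2 and 3, and 94.1, 119 and 140.2 CPM in complete 1, 2 and 3. In each of these ring genes deprived 2 exceeded the other deprived libraries and complete 1 lay below the other complete libraries. Without deprived 2 and complete 1, MCM5 was at -0.48 ± 0.10 (SE) and MCM7 at -0.46 ± 0.09 (SE), both called. MCM2, the ring subunit that also binds histones, ranged over 91.9 to 103 CPM in deprived and 95.8 to 112 CPM in complete libraries and was not called in that fit, its edgeR adjusted p being 0.084.

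MCM6 was the ring subunit outside the order, with 71.3, 74.8 and 72.6 CPM in deprived 1, 2 and 3, and 68.4, 81.7 and 67.6 CPM in complete 1, 2 and 3. Its highest library exceeded its lowest by 1.21-fold, against 1.56-fold for MCM7, and its log2 ratio was 0.0056 ± 0.10 (SE) by label and -0.06 without both libraries. Its promoter held 4 E2F words, the most of any member. MCM8, a relative of the ring subunits with a part in recombination, ranged over 36.4 to 44.1 CPM in deprived and 40.5 to 46.8 CPM in complete libraries. MCM10, which helps to start the assembled helicase, measured 37.0, 50.7 and 40.0 CPM in deprived 1, 2 and 3, and 34.6, 49.3 and 50.1 CPM in complete 1, 2 and 3. MCM10 was lower without deprived 2 and complete 1, at -0.37 ± 0.12 (SE).

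The 4 GINS subunits, which bridge the ring and polymerase epsilon, were not alike. GINS4 measured 30.5, 47.2 and 25.5 CPM in deprived 1, 2 and 3, and 31.4, 41.8 and 45.7 CPM in complete 1, 2 and 3. Deprived 2 was its highest library, and with complete 2 and complete 3 it stood 0.41 on the log2 scale above the nearest of the others. GINS4 had a log2 ratio of -0.21 ± 0.23 (SE) by label, and of -0.64 ± 0.13 (SE) with an edgeR adjusted p of 0.0007 without both libraries, the lowest value of any member. GINS2, with the smallest unadjusted p by label among the 42 at 0.0715 in edgeR, measured 20.5, 24.9 and 20.4 CPM in deprived 1, 2 and 3, and 24.2, 30.3 and 26.1 CPM in complete 1, 2 and 3. Its labels overlapped in 1 pair of libraries, deprived 2 and complete 1.

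GINS2 had a log2 ratio of -0.30 ± 0.15 (SE) by label, and of -0.47 without both libraries. GINS1 ranged over 11.04 to 13.2 CPM in deprived and 9.72 to 17.8 CPM in complete libraries and was not called in either fit. GINS3 measured 24.4, 21.7 and 23.1 CPM in deprived 1, 2 and 3, and 15.8, 24.1 and 22.4 CPM in complete 1, 2 and 3, so that complete 1 alone was low. CDC45, the helicase subunit that joins GINS and the ring, measured 15.2, 28.1 and 19.3 CPM in deprived 1, 2 and 3, and 14.7, 19.1 and 19.6 CPM in complete 1, 2 and 3. Deprived 2 was far above every other library, and the log2 ratio by label was 0.23 ± 0.23 (SE), against -0.17 without both libraries. CDC7, the kinase that activates the ring, ranged over 11.2 to 15.1 CPM in deprived and 12.7 to 16.9 CPM in complete libraries.

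**Figure D3:**
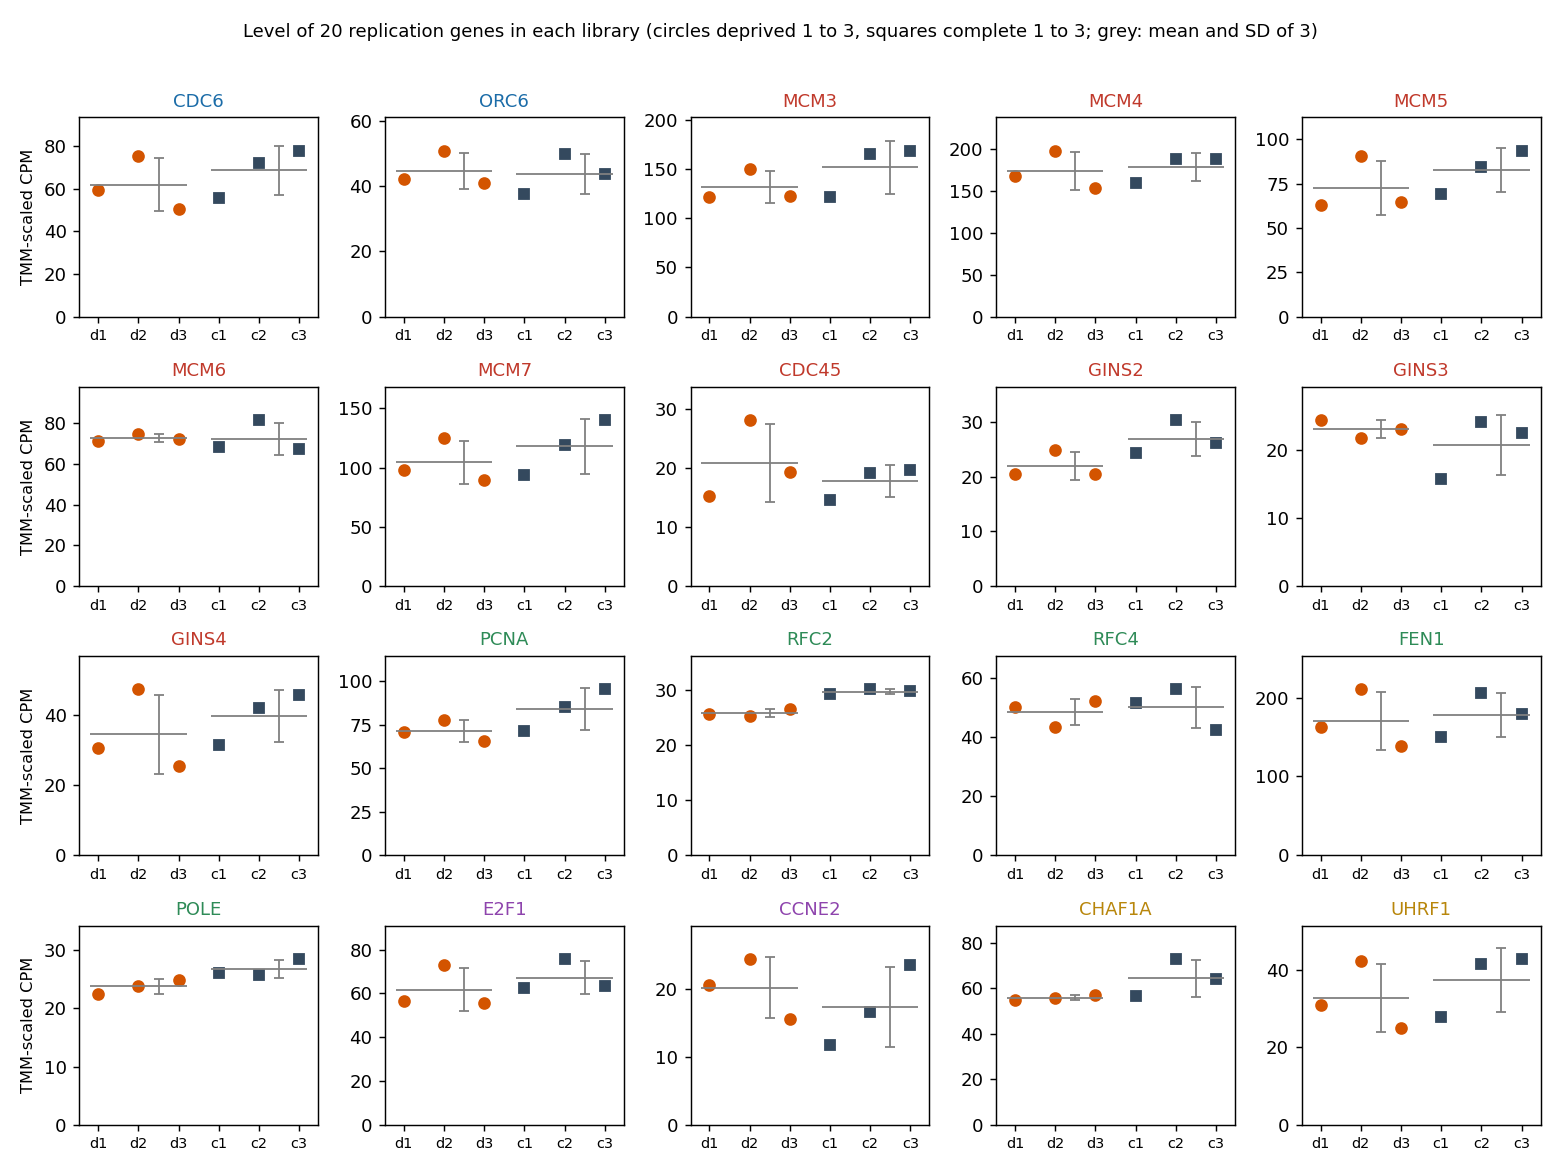
TMM-scaled CPM of 20 replication genes in each library, with d1 to d3 the deprived libraries (circles) left of c1 to c3 the complete libraries (squares), and the mean and SD of the 3 libraries of each label in grey. In MCM5, GINS4 and UHRF1 d2 stands with c2 and c3 and c1 with d1 and d3, whereas RFC2 and POLE separate by label with small differences.

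Of the polymerase, clamp and clamp loader genes 7 of 16, or 43.8%, kept the crossing order, against 17.7% of all genes. The difference from the helicase genes was not tested. Of the 42 members, RFC2 and POLE were the ones whose deprived libraries all lay below the complete libraries, which is 4.76% of the members against 3.49% of all genes. In the other direction the count was 0, against 3.48% of all genes. RFC2, a small subunit of the clamp loader, measured 25.5, 25.2 and 26.5 CPM in deprived 1, 2 and 3, and 29.2, 30.0 and 29.7 CPM in complete 1, 2 and 3. Its log2 ratio was -0.20 ± 0.11 (SE) by label and -0.20 ± 0.14 (SE) without both libraries, with an edgeR adjusted p of 0.999 and 0.397. POLE, the catalytic subunit of the leading-strand polymerase epsilon, measured 22.5, 23.9 and 25.0 CPM in deprived 1, 2 and 3, and 26.1, 25.8 and 28.5 CPM in complete 1, 2 and 3. Its log2 ratio was -0.17 ± 0.12 (SE) by label and -0.19 without both libraries, neither called.

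PCNA, the sliding clamp, measured 70.8, 77.9 and 65.5 CPM in deprived 1, 2 and 3, and 71.6, 85.4 and 95.3 CPM in complete 1, 2 and 3. Only deprived 2 exceeded the lowest complete library. Its log2 ratio of -0.24 ± 0.12 (SE) by label had a 95% interval from -0.51 to 0.04, and without both libraries it was -0.41 ± 0.10 (SE) with an edgeR adjusted p of 0.0027. By name the RefSeq gene table lists 4 pseudogenes of PCNA, 3 of RPA2 and 1 each of ORC1, RFC3, RFC5 and FEN1, and the counts of these genes are uncertain for that reason. FEN1, the nuclease that trims Okazaki fragments, measured 163, 210.2 and 138 CPM in deprived 1, 2 and 3, and 150.01, 206 and 179 CPM in complete 1, 2 and 3. Its log2 ratio was -0.06 by label and -0.35 ± 0.08 (SE) without both libraries. LIG1, the ligase that seals those fragments, ranged over 13.2 to 16.2 CPM in deprived and 11.3 to 20.1 CPM in complete libraries and was called at -0.53 without both libraries.

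Within the clamp loader, RFC3 and RFC5 had the crossing order and RFC2 and RFC4 did not. RFC5 ranged over 33.7 to 47.8 CPM in deprived and 41.8 to 48.7 CPM in complete libraries, and without both libraries it was at -0.47 ± 0.12 (SE). RFC3 ranged over 56.9 to 93.0 CPM in deprived and 71.7 to 85.4 CPM in complete libraries, and without both libraries it was at -0.37 ± 0.10 (SE). RFC4 measured 50.2, 43.6 and 52.2 CPM in deprived 1, 2 and 3, and 51.7, 56.2 and 42.5 CPM in complete 1, 2 and 3, with no set of libraries apart. In the GENCODE 29 annotation the 3′ ends of RFC4 and RFC5 lie near or within EIF4A2 and WSB2 on the opposite strand, those of GINS2, CHAF1A and CCNE2 near or within GSE1, UBXN6 and INTS8, and those of PRIM1 and FEN1 near or within NACA and FADS2 on the same strand. Antisense genes lie there at MCM2, MCM8 and GINS4, further protein-coding genes on the same strand at POLA2 and POLD1, and the microRNA gene MIR25 at MCM7. The strand setting of the count is not given in the sources used here, so counts of these genes are uncertain.

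None of the 7 polymerase subunits among the 42, which are POLA1, POLA2, PRIM1, POLD1, POLD3, POLE and POLE2, was called by edgeR in either fit. POLA1, POLA2 and PRIM1, which form the polymerase that lays primers, had 0 of 3 members in the crossing order, against 17.7% of all genes. POLA1 ranged over 49.2 to 69.1 CPM in deprived and 56.4 to 65.1 CPM in complete libraries, and PRIM1 ranged over 18.3 to 30.7 CPM in deprived and 19.3 to 23.6 CPM in complete libraries. POLA2 ranged over 19.9 to 27.4 CPM in deprived and 23.2 to 27.0 CPM in complete libraries. Of the polymerase delta genes, the catalytic POLD1 ranged over 6.66 to 9.95 CPM in deprived and 6.65 to 11.7 CPM in complete libraries, and the accessory POLD3 over 38.7 to 46.9 CPM in deprived and 37.8 to 48.6 CPM in complete libraries. POLD2, a polymerase delta subunit outside the 42, was called lower without both libraries, at -0.36 ± 0.09 (SE) with an edgeR adjusted p of 0.0066. POLE2, the second subunit of polymerase epsilon, averaged 9.83 ± 0.70 CPM in deprived and 9.83 ± 3.20 CPM in complete libraries (SD, n = 3 each). The single-strand binding genes RPA1 and RPA2 had log2 ratios of -0.03 and 0.04 by label, each with a standard error of 0.12 to 0.13, and were not called without both libraries, at -0.17 and -0.14.

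The genes that drive S phase entry did not move as a group. E2F1, one of the E2F factors known as activators of this set, measured 56.5, 73.1 and 55.4 CPM in deprived 1, 2 and 3, and 62.5, 75.7 and 63.3 CPM in complete 1, 2 and 3. It kept the crossing order, but by a gap of 0.018 on the log2 scale, as complete 3 was close to complete 1. Its log2 ratio was -0.12 ± 0.13 (SE) by label, and -0.31 ± 0.11 (SE) with an edgeR adjusted p of 0.041 without both libraries. CCNE2, a cyclin that activates CDK2, measured 20.6, 24.4 and 15.6 CPM in deprived 1, 2 and 3, and 11.8, 16.6 and 23.6 CPM in complete 1, 2 and 3. With a ratio of 2.07 between its highest and lowest libraries it varied more than any other member, and its log2 ratio by label was 0.22 ± 0.26 (SE). CCNE1, the other cyclin E, ranged over 13.6 to 14.9 CPM in deprived and 11.6 to 13.8 CPM in complete libraries. CCNE1 and CCNE2 were the members with a log2 ratio above 0 in every fit with 1 library left out.

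Of the 3 chromatin assembly genes 2 kept the crossing order, or 66.7% against 17.7% of all genes. UHRF1, which reads hemimethylated DNA and recruits the maintenance methyltransferase, measured 30.8, 42.2 and 25.0 CPM in deprived 1, 2 and 3, and 27.7, 41.4 and 42.8 CPM in complete 1, 2 and 3. Its gap of 0.43 on the log2 scale between the 3 lowest and 3 highest libraries was the widest of the 24 members in that order. UHRF1 had a log2 ratio of -0.19 ± 0.22 (SE) by label, and of -0.59 ± 0.14 (SE) with an edgeR adjusted p of 0.0019 without both libraries. CHAF1A, the large subunit of the histone chaperone CAF-1, measured 54.6, 55.9 and 57.1 CPM in deprived 1, 2 and 3, and 56.6, 72.8 and 63.9 CPM in complete 1, 2 and 3. Complete 2 and complete 3 alone were high, and complete 1 lay among the deprived libraries. CHAF1B, its partner, ranged over 11.8 to 22.7 CPM in deprived and 14.03 to 19.6 CPM in complete libraries, and without both libraries it was called at -0.54, while CHAF1A was not, at -0.29 with an edgeR adjusted p of 0.056.

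**Figure D4:**
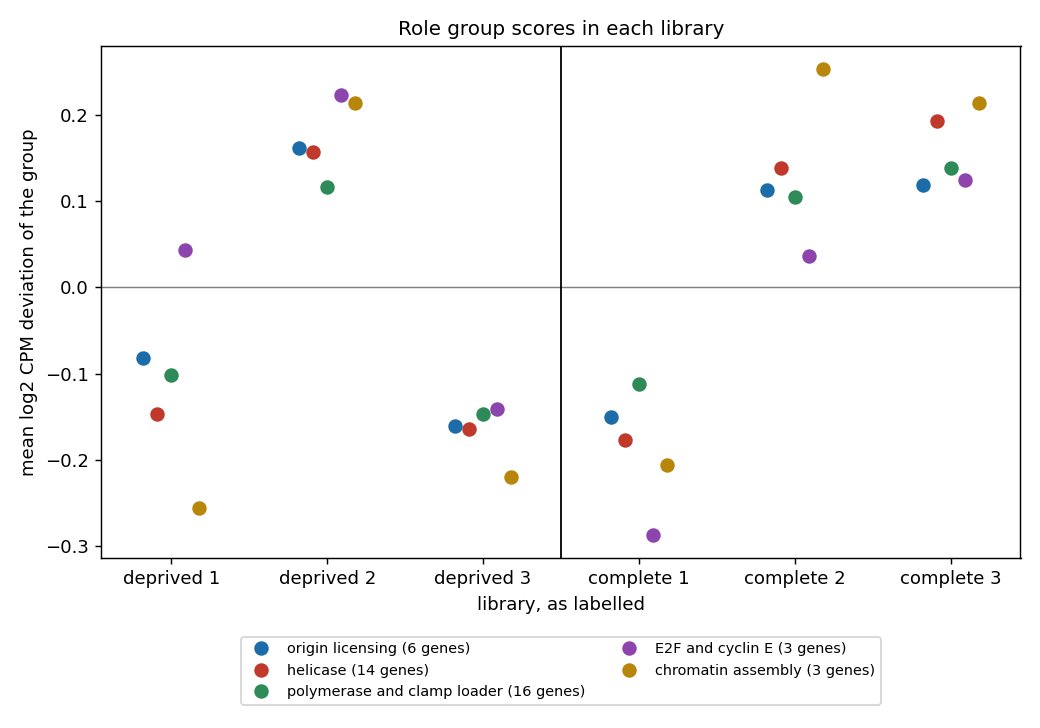
Mean deviation of each role group from its 6-library mean, in log2 CPM, by library as labelled, deprived 1 to 3 left of complete 1 to 3. All groups lie below 0 in deprived 3 and complete 1 and above 0 in deprived 2, complete 2 and complete 3, and in deprived 1 the E2F and cyclin E group alone lies above 0.

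Set side by side in the plot of role group scores, the licensing, helicase and polymerase groups lay on the same side of 0 in each library. The helicase score was -0.15, 0.16 and -0.16 in deprived 1, 2 and 3, against -0.18, 0.14 and 0.19 in complete 1, 2 and 3. The licensing score was -0.08, 0.16 and -0.16 in deprived 1, 2 and 3, against -0.15, 0.11 and 0.12 in complete 1, 2 and 3. The polymerase and clamp loader score was -0.10, 0.12 and -0.15 in deprived 1, 2 and 3, against -0.11, 0.10 and 0.14 in complete 1, 2 and 3. In all 3 groups deprived 2, complete 2 and complete 3 lay above 0 and the other libraries below it. The chromatin assembly score, from 3 genes, was -0.26, 0.21 and -0.22 in deprived 1, 2 and 3. It was -0.21, 0.25 and 0.21 in complete 1, 2 and 3, and kept that order. The E2F and cyclin E score, from 3 genes, was 0.04, 0.22 and -0.14 in deprived 1, 2 and 3, against -0.29, 0.04 and 0.12 in complete 1, 2 and 3, and did not keep that order. By label the median log2 ratios were -0.05 for licensing, -0.15 for helicase, -0.08 for polymerase and clamp loader, 0.13 for E2F and cyclin E, and -0.19 for chromatin assembly genes. Without both libraries they were -0.19, -0.33, -0.20, -0.15 and -0.54 in the same order of groups, so that the E2F and cyclin E median changed sign.

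Other genes of replication outside the 42 gave 0 calls by label. Of 32 further initiation and fork factors tested, 20 had a log2 ratio below 0, or 62.5% against 49% of all genes, and the median was -0.04. The smallest unadjusted p values by label belonged to RFC1, the large clamp loader subunit, and ORC5, an origin recognition subunit. RFC1 averaged 212 ± 7.66 CPM in deprived and 193 ± 6.93 CPM in complete libraries (SD, n = 3 each), and ORC5 averaged 27.7 ± 3.40 CPM in deprived and 31.7 ± 1.22 CPM in complete libraries (SD, n = 3 each). RFC1 and ORC3, another origin recognition subunit, were the 2 of the 32 whose deprived libraries all lay above the complete libraries, an order seen in 3.48% of all genes. All lay below for 0 of the 32, against 3.49% of all genes. In deprived 1, deprived 3 and complete 1, 12 of the 32 had their 3 lowest values. That is 37.5%, against 17.7% of all genes and 57.1% of the 42 members. There 0 had their 3 highest, against 18.3% of all genes. Without both libraries 7 of the 32 were called lower, or 21.9% against 7.38% of all genes, and 0 higher, against 8.57% of all genes. Among the lower ones were CLSPN, the checkpoint adaptor claspin, at -0.39 ± 0.08 (SE), and TIPIN, a fork protection protein, at -0.59 ± 0.17 (SE).

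Of 19 genes of the E2F and retinoblastoma families and their regulators, 11 were below 0 by label, or 57.9% against 49% of all genes, with a median of -0.0092. In deprived 1, deprived 3 and complete 1, 8 had their 3 lowest values, or 42.1% against 17.7% of all genes, and 3 their 3 highest, or 15.8% against 18.3%. LIN37, a subunit of the repressor complex DREAM, and TFDP1, the partner of E2F proteins in DNA binding, had the smallest unadjusted p by label. LIN37 averaged 6.93 ± 1.22 CPM in deprived and 4.90 ± 1.03 CPM in complete libraries, and TFDP1 averaged 102 ± 6.12 CPM in deprived and 118 ± 15.5 CPM in complete libraries (SD, n = 3 each). Without both libraries 4 of the 19 were called lower, or 21.1% against 7.38% of all genes, and 1 higher, against 8.57% of all genes. The higher gene was RBL2, the retinoblastoma relative p130 of quiescent cells, which measured 47.2, 34.8 and 45.4 CPM in deprived 1, 2 and 3, and 46.4, 28.9 and 31.8 CPM in complete 1, 2 and 3. RBL2 thus stood opposite to the helicase genes, with a log2 ratio of 0.25 by label and of 0.61 ± 0.13 (SE) without both libraries. CDK2, the kinase partner of cyclin E, measured 104, 173 and 123 CPM in deprived 1, 2 and 3, and 125, 158 and 168 CPM in complete 1, 2 and 3. CDK2 was at -0.52 ± 0.09 (SE) with an edgeR adjusted p of 2.2e-05 without both libraries.

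Genes of nucleotide supply and chromatin duplication in S phase had their 3 lowest values in deprived 1, deprived 3 and complete 1 in 14 of 18 cases, or 77.8% against 17.7% of all genes, and the difference from other gene groups was not tested. By label 17 of the 18 were below 0, or 94.4% against 49% of all genes, with a median of -0.10. TK1, thymidine kinase, averaged 67.8 ± 8.68 CPM in deprived and 76.7 ± 7.85 CPM in complete libraries (SD, n = 3 each). TYMS, the thymidylate synthase that uses a one-carbon unit, measured 105, 157 and 96.8 CPM in deprived 1, 2 and 3, and 105, 173 and 156 CPM in complete 1, 2 and 3. Deprived 2 stood with complete 2 and complete 3, and complete 1 with deprived 1 and deprived 3. Without both libraries 11 of the 18 were called lower, or 61.1% against 7.38% of all genes, and 0 higher, against 8.57%, with TYMS at -0.71 and a standard error of 0.08. RRM2, the cycling subunit of ribonucleotide reductase, was at -0.68 ± 0.09 (SE) in that fit, against -0.23 by label.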

How the data were processed

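RNA of 6 U87MG libraries was counted at transcript 3′ ends, since libraries were made with the QuantSeq 3′ kit from 500 ng of total RNA, per the labels' protocols. Unnormalized counts were deposited by the authors in 1 table, with 25737 rows and 24462 different gene symbols. Rows sharing a symbol were tested apart and counted as separate genes, and were summed in an alternative. Per the submitters' processing notes reads were handled with Bowtie2. Its version, the counter, build, annotation and strand setting are not stated in the labels or the file. Groups came from sample titles, and columns were matched by name. The table had 0 rows without a gene name.

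Tests used edgeR 4.0.16 in R 4.3.3 on all rows that passed filterByExpr (minimum count 10), with TMM scaling, the quasi-likelihood test of medium and Benjamini-Hochberg adjustment over 13068 genes. Log2 CPM used a prior count of 3. The procedure was tested on simulated data. Alternatives included DESeq2 1.42.0 and limma 3.58.1. Each library's depth is given with the results, and 3 counts were taken as the floor. Figures were drawn with Matplotlib 3.10.9 in Python 3.11.15.

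The 42 members, their roles and the other gene lists were chosen with earlier results of these data known, including the order of libraries. Values per library were to be written out for members whose labels do not overlap, members with an unadjusted p under 0.05 and the 2 members per role with the highest mean CPM. Of the other lists the text names the 2 genes with the smallest p. Further genes given per library, such as MCM5, MCM6, GINS4, CDC45, RBL2, CDK2 and TYMS, and RRM2, CLSPN, TIPIN, POLD2 and ORC3, were chosen after their values were seen. Same-numbered libraries deviated from their label means with correlations of 0.384, 0.381 and -0.281 across genes, so the numbers were not taken as pairs.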

Additional observations from a re-analysis of the deposited data

How the results depend on the processing

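The fit without deprived 2 and complete 1 was added because of their values; the others were planned. By label, 0 genes and 0 members were called under every planned setting, against 2096 genes and 16 members without both libraries. Leaving out deprived 2 alone yielded 7 members with an unadjusted edgeR p below 0.05, beside 1037 of all 13296 genes tested. With complete 1 alone left out there were 6 such members, beside 1141 of 13282 genes. The remaining planned edgeR fits held 0 such members. Whether members and all genes differed in these shares was not tested. The number of members below 0 was 31 to 33 with 6 libraries and 27 to 37 with 1 left out, and their median ran from -0.20 to -0.03 with 1 left out. No planned scaling or filter moved the median of all genes by over 0.1. Equal replicate numbers are not stated to mark pairs; with the number as a replicate block, 0 genes and 0 members were called, 429 genes had an unadjusted p under 0.05, 31 members were below 0 and their median was -0.12. Depth limits members with few counts, such as POLE2 and POLD1.

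The log2 ratios that changed sign were smaller than their SE by label, and the cause was not tested. With 1 library left out, the range was -0.15 to 0.14 for ORC2, -0.077 to 0.13 for ORC6, -0.014 to 0.17 for GMNN, -0.15 to 0.035 for MCM4, -0.044 to 0.10 for MCM6, -0.22 to 0.019 for MCM10, -0.049 to 0.41 for CDC45, -0.012 to 0.27 for GINS3, -0.079 to 0.15 for POLA1, -0.016 to 0.35 for PRIM1, -0.39 to 0.017 for POLD1, -0.12 to 0.055 for POLD3, -0.24 to 0.19 for POLE2, -0.32 to 0.047 for RFC3, -0.15 to 0.047 for RFC4, -0.12 to 0.065 for RPA1, -0.080 to 0.16 for RPA2, -0.24 to 0.068 for FEN1, -0.40 to 0.10 for CHAF1B. Without both libraries, the value was -0.17 for ORC6, -0.083 for GMNN, -0.055 for MCM6, -0.17 for CDC45, -0.13 for POLA1, -0.092 for PRIM1, 0.050 for RFC4, -0.14 for RPA2, -0.15 for CCNE2. Library totals alone gave -0.0031 for MCM6, and POLE2 was at 0.040 with limma-voom and at 0.026 with the replicate block.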
